A study of Homo sapiens with 6 samples.

Results

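The 39 HOX cluster genes were taken as every gene symbol made of HOX, a cluster letter from A to D and a number, out of 23228 genes in the tables. They comprised 11 HOXA, 10 HOXB, 9 HOXC and 9 HOXD genes, and 37 of them had a read in at least 1 library. RNA was sequenced from Hep3B, an established human hepatocellular carcinoma cell line, in 3 control libraries and 3 libraries labelled PELP1-KD. PELP1 is a nuclear coregulator protein that takes part in transcription and in ribosome assembly. Control cells carried a lentiviral shRNA with no human target, and PELP1-KD cells carried lentiviral shRNA against PELP1. The paper made its knockdown cells with more than 1 PELP1 shRNA and does not say which were sequenced. Puromycin was used to select the knockdown cells, and each group is an engineered population of 1 cell line. Nothing in the labels says whether the 3 libraries of a group came from separate cultures, and p-values measure the spread between these libraries, which may be technical.

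HOX genes encode homeodomain transcription factors that give cells their position along the body axis. In mammals they lie in 4 clusters on different chromosomes, in which genes with low numbers act towards the head and genes with high numbers towards the tail, the limb ends and the urogenital tract. Polycomb complexes keep the clusters silent, trithorax proteins of the MLL family keep them active, retinoic acid induces low-numbered members first, and PBX and MEIS proteins bind DNA together with HOX proteins.

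The library labels were checked on PELP1 itself. Its normalized reads, which are reads divided by the library size relative to the other libraries, were 4893, 4914 and 5102 in the controls. Libraries labelled PELP1-KD had 4421, 4825 and 4840. The groups did not overlap, but the knockdown mean was 94.5% of the control mean, with a log2 fold change of -0.08 (SE 0.04, adjusted p = 0.101 by edgeR). A fit that blocked on the replicate number gave PELP1 an adjusted p of 0.0106 by edgeR. The groups below are therefore groups by label. This check covers RNA only, and the paper reports less PELP1 protein by Western blot in its Hep3B knockdown cells. The liver identity of the cells was visible in all 6 libraries, with albumin at 4921 ± 76.0 RPKM (SD, n = 3) in controls and 3219 ± 43.2 in PELP1-KD. RPKM is reads scaled by exon length and library size, the scale used here to compare levels between genes. Of 4 endothelial markers CDH5 and KDR had 0 reads in every library, VWF had 4 over the controls and 3 over PELP1-KD, and PECAM1 had 213 and 178. Of 5 fibroblast markers THY1 had 0 reads and DCN had 2 and 4, while LUM, COL1A2 and PDGFRA were detected throughout.

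For HOX genes whose promoter sequence was at hand, the stretches upstream of 5 are shown, because these genes differ in the responses described below. None of them is a HOXB or HOXC gene. HOXD3 and HOXD4 rose more than 2-fold, HOXA11 rose most within HOXA, and HOXA7 and HOXD1 did not pass the test. Each line gives the 250 bases before the RefSeq start on GRCh38.p14, 5′ to 3′, and capitals mark the homeodomain core TAAT or its reverse complement ATTA.
HOXD4: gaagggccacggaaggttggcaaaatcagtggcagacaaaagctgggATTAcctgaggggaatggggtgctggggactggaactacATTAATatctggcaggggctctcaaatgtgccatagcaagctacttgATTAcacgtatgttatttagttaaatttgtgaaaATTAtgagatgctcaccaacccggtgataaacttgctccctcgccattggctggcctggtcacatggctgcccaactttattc
HOXD3: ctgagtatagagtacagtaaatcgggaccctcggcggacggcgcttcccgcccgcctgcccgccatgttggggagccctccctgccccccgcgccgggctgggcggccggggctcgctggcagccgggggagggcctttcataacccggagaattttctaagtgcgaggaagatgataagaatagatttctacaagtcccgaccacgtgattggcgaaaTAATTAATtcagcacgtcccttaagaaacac
HOXD1: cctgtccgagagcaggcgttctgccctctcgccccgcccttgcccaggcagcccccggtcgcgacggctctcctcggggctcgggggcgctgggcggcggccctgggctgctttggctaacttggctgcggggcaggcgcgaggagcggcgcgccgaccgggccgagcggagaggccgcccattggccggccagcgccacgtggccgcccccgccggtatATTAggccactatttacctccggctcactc
HOXA11: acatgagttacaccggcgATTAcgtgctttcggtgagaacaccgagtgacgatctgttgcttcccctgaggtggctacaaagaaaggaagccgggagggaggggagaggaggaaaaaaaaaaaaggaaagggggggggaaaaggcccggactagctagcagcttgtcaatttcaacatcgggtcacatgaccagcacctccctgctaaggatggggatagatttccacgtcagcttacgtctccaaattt
HOXA7: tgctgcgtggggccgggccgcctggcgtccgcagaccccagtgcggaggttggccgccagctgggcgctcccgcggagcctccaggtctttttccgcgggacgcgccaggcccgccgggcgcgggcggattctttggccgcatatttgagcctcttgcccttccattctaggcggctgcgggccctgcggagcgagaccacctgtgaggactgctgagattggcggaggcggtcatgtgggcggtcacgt

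The HOXD4 stretch is chr2:176151300-176151549 on the plus strand, the HOXD3 stretch is chr2:176157057-176157306 on the plus strand, and the HOXD1 stretch is chr2:176188418-176188667 on the plus strand. The HOXA11 stretch is chr7:27185233-27185482 on the minus strand, and the HOXA7 stretch is chr7:27156676-27156925 on the minus strand. RefSeq stretches were matched for 20 of the 39 members, in 26 different windows, with 1 window shared by HOXC4 and HOXC5, and none was matched for HOXB7 or HOXB9. The core stood 5 times in the HOXD4 stretch, 3 times in that of HOXD3, and 1 time each in those of HOXD1 and HOXA11, counted on both strands with overlaps allowed, and 0 times in that of HOXA7. Of the 26 HOX windows, 73.1% held a TAAT core, against 47.5% of all 34943 windows of the same length. Several of the 26 are alternative starts of HOXA3, most of them with the core. HOXB is represented only by HOXB1, and HOXC only by the window of HOXC4 and HOXC5, so the share describes mainly HOXA and HOXD. The HOX and PBX motif TGATTNAT stood in 2 of the 26 windows and in 2.49% of all windows, and the nuclear receptor element AGGTCA in 0 of 26 and 12.1%. HOX windows were rich in CpG, with a median of 19.5 per 250 bases against 11 over all windows, but the HOXD4 stretch had 4 and that of HOXD1 had 31. A match here describes letters only and shows neither binding nor a cause.

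Most tested HOX genes were higher in the PELP1-KD libraries, with rising members in each of the 4 clusters. Of the 23 members that met the count minimum in both groups, 19 rose at an adjusted p below 0.05 by edgeR and 0 fell, where 26.8% of the 14537 genes tested rose and 26.8% fell (53.6% in either direction). Their median log2 fold change was 0.49, against 0.00 over all tested genes. Most rises were below 2-fold. HOXB7 and HOXD4 were the 2 of the 23 that rose at least 2-fold, where 2.85% of tested genes did. HOXB9 and HOXD3 also rose at least 2-fold, but they met the minimum through the PELP1-KD libraries alone, so their rise is not counted with the others. HOXD13 met the minimum in full in neither group and was tested all the same. With these members, 21 of 26 tested HOX genes rose, and HOXA2, HOXA6, HOXA7, HOXD1 and HOXD13 were not called. In 19 of the 23 that met the minimum in both groups the PELP1-KD libraries all lay above the controls, a pattern seen in 29.5% of tested genes. No member met the minimum in the controls only. In bulk RNA, a larger share of expressing cells and more RNA per cell cannot be told apart.

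**Figure D1:**
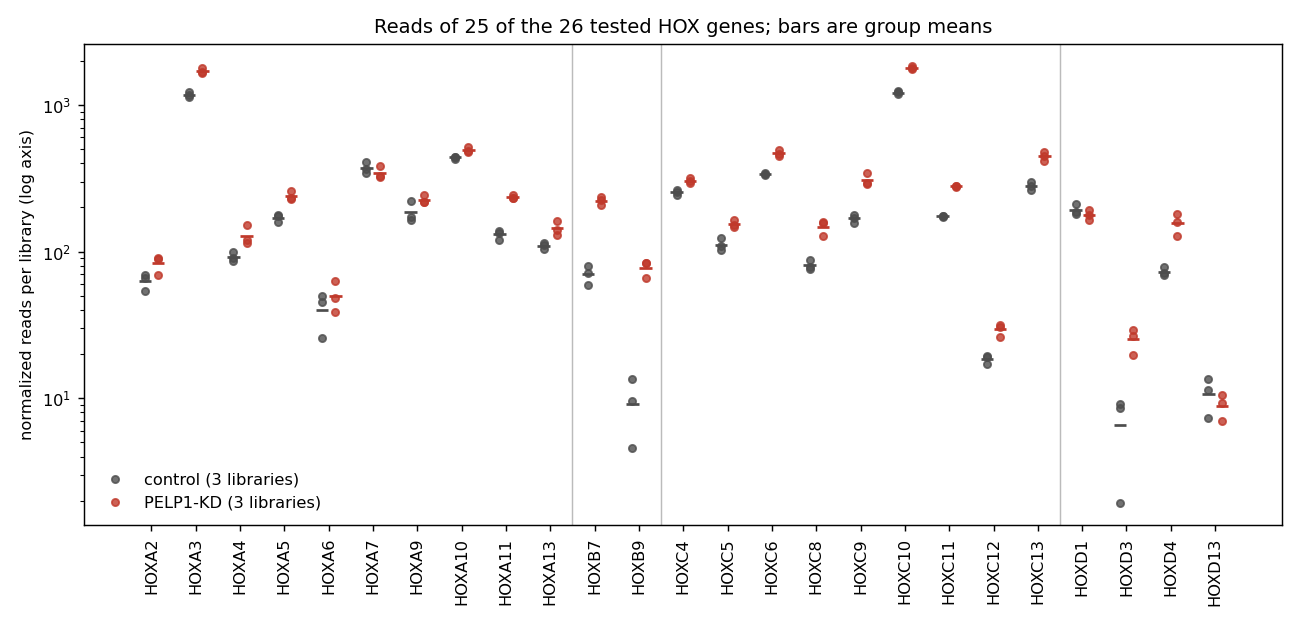
Normalized reads of 25 of the 26 tested HOX genes in each of 6 libraries on a log axis, with points for libraries, short bars for group means and vertical lines between clusters. HOXC10 and HOXA3 are the highest genes in both groups, and the gap between the groups is widest for HOXB9, HOXD3 and HOXB7.

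The share of HOX reads in each library followed the same direction. Reads on all 39 members came to a CPM (share of reads on genes, scaled to a fixed library size) of 199, 197 and 195 in the controls and to 278, 282 and 285 in PELP1-KD. The smallest PELP1-KD value was far above the largest control value, and the spread within each group was small. Between 29 and 31 members had a read in a control library, and 34 or 35 in a PELP1-KD library.

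Summed reads were higher in PELP1-KD in each of the 4 clusters. Summed normalized reads of the HOXA genes went from 3216 ± 35.9 (SD, n = 3) to 4153 ± 80.4, a log2 ratio of 0.37. Those of HOXB went from 82.0 ± 9.01 to 329 ± 23.0, a log2 ratio of 2.01. HOXB was the least expressed cluster and the one with the greatest relative rise. The sum for HOXC went from 2637 ± 24.7 to 3937 ± 103, with a log2 ratio of 0.58, and that for HOXD from 291 ± 19.0 to 383 ± 34.8, with a log2 ratio of 0.40. HOXD4 supplied most of the HOXD rise, with a mean going from 72.9 to 156, while that of HOXD1 went from 192 to 179. In each cluster the groups did not overlap, and the two-sided exact permutation test gave p = 0.1, the smallest value that 3 against 3 libraries allow.

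Of 6 pairs of clusters compared within libraries, 5 had ratios that did not overlap between the groups, each with an exact permutation p of 0.1 and an adjusted p of 0.12. The log2 ratio of HOXB to HOXA was thus higher by 1.64 in PELP1-KD, since HOXA over HOXB changed by -1.64. The log2 ratio of HOXA to HOXC changed by -0.21. HOXA over HOXD changed by -0.03 and overlapped between the groups (exact permutation p = 0.9). As a share of summed HOX RPKM, HOXB went from 2.02% to 5.18%, HOXC from 46.8% to 48.9%, HOXA from 45.3% to 40.1% and HOXD from 5.94% to 5.80%. HOXC and HOXA together thus supplied most HOX transcripts in both groups.

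**Figure D2:**
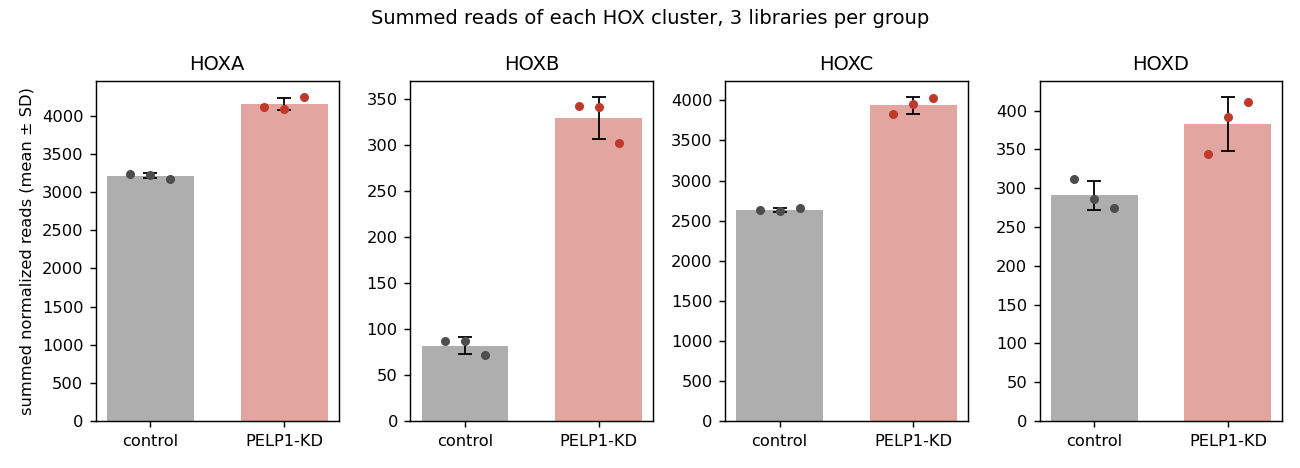
Summed normalized reads of the members of each HOX cluster, as bars for the mean of 3 libraries with SD and points for libraries, each panel with its own axis from 0. In all 4 panels the PELP1-KD libraries lie above the controls, and the HOXB mean goes from 82.0 to 329.

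HOXB held the greatest changes. This cluster lies on chromosome 17 (hg19, 46606807 to 46806111), and only HOXB7 and HOXB9 had enough reads to test. HOXB7, which acts in thoracic patterning and is often raised in tumours, had 79.8, 71.9 and 59.1 normalized reads in the controls and 234, 223 and 209 in PELP1-KD. Each PELP1-KD library was thus well above each control, and the log2 fold change was 1.66 (SE 0.13, adjusted p = 1.32e-09 by edgeR). On the RPKM scale its level went from 1.64 ± 0.242 to 5.17 ± 0.30 (SD, n = 3). HOXB9, a thoracic patterning gene on the far side of HOXB8, had 5, 14 and 10 reads as deposited in the controls and 81, 71 and 66 in PELP1-KD. The controls held few reads, and every PELP1-KD library was far above them. The log2 fold change of HOXB9 was 3.06 (SE 0.28, adjusted p = 1.71e-08 by edgeR), and it lay between 2.74 and 3.43 when single libraries were left out. HOXB9 entered the test through its PELP1-KD reads alone, so this p-value is no separate support for its rise.

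The other 8 HOXB genes stayed below the minimum, and their reads are given as deposited. HOXB8 had 3, 1 and 2 reads in the controls and 11, 9 and 6 in PELP1-KD. HOXB6 had 0 in each control and 6, 9 and 7 in PELP1-KD, and HOXB5 had 0 in each control and 4, 5 and 5. No control library reached the lowest PELP1-KD library in any of these 3 genes. Scaled for depth, the PELP1-KD to control ratio of summed reads was 4.86 for HOXB8 (95% exact binomial interval 1.96 to 14.5). Taking 3 reads over the control group as the limit that a count of 0 allows, HOXB6 was 8.23-fold higher and HOXB5 5.24-fold higher. The intervals cover counting error only. The limits cover counting error in the controls alone, with the PELP1-KD reads taken as exact, so a smaller fold is possible. HOXB3 had 2 reads over the controls and 12 over PELP1-KD, a ratio of 6.74 (1.5 to 62.0). HOXB13, a prostate and tail-bud gene at the far end of the cluster, had 0 reads in the controls and 2, 1 and 4 in PELP1-KD. It was 2.62-fold higher at the same control limit. HOXB2 and HOXB4 had 1 and 2 reads, all in the second PELP1-KD library, and HOXB1 had none anywhere. When no count minimum was set, HOXB3, HOXB5, HOXB6, HOXB8 and HOXB13 passed an adjusted p of 0.05 by edgeR, with values from 4.7e-05 for HOXB6 to 0.0464 for HOXB3, where 21.7% of the 18678 genes with a read were called higher.

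**Figure D3:**
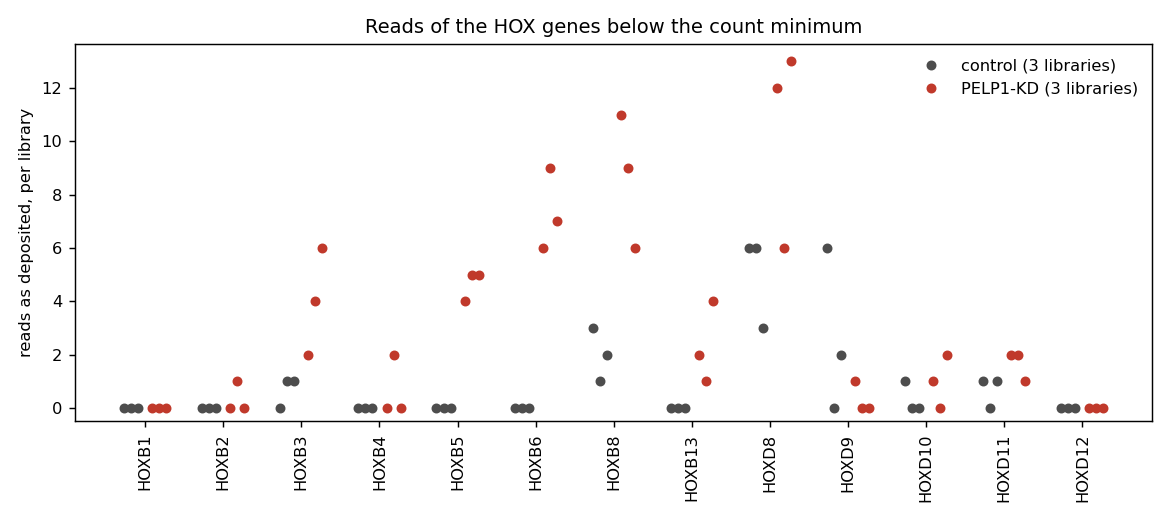
Reads as deposited, per library, of the 13 HOX genes below the count minimum, with a point for each of 3 control and 3 PELP1-KD libraries. HOXB5, HOXB6 and HOXB13 have 0 reads in each control and reads in each PELP1-KD library, and HOXD9 has more reads in the controls.

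HOXC rose throughout. Its 9 genes lie on chromosome 12 (hg19, 54332576 to 54449814), and all 9 were tested. All 9 rose by edgeR, by 0.27 to 0.88 on the log2 scale with a median of 0.66, where 26.8% of all tested genes rose. An alternative test, DESeq2, did not call HOXC4 (adjusted p = 0.0593) or HOXC12 (adjusted p = 0.171) and called the other HOXC genes. HOXC10, which patterns lumbar motor neurons and the hindlimb, was the HOX gene with the highest level. Its normalized reads were 1187, 1218 and 1233 in the controls and 1751, 1796 and 1845 in PELP1-KD. The groups were tight and far apart, with a log2 fold change of 0.57 (SE 0.05, adjusted p = 3.77e-09 by edgeR) and an RPKM of 19.7 ± 0.383 against 29.2 ± 0.765 (SD, n = 3).

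The highest log2 fold changes within HOXC were those of HOXC8 and HOXC9, which act in the thoracic spinal cord and skeleton. HOXC8 had 87.1, 75.7 and 78.2 normalized reads in the controls and 159, 158 and 128 in PELP1-KD, and HOXC9 had 178, 169.6 and 156 against 293, 343 and 291. Neither gene had overlapping groups, and their log2 fold changes were 0.88 (SE 0.14, adjusted p = 2.04e-05 by edgeR) and 0.87 (SE 0.10, adjusted p = 3.15e-07). HOXC11 had 173, 175 and 174 normalized reads in the controls and 276, 280.0 and 279.7 in PELP1-KD, and rose by 0.68 (SE 0.09). HOXC13, which drives keratin genes of hair and nail, had 298, 265 and 278 against 415, 449 and 480.4, and also rose by 0.68 (SE 0.08). Both genes had no overlap between the groups. HOXC12, their neighbour, was low, at 0.695 ± 0.0442 RPKM in controls, and its rise of 0.66 (SE 0.26, adjusted p = 0.0402 by edgeR) held its call in just 1 of 6 fits with a library left out. The 95% interval of HOXC12 ran from -0.07 to 1.38.

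The 3 low-numbered genes of the cluster gave less separate values. HOXC4, HOXC5 and HOXC6 share 557 bases of exon on the same strand, and their values were whole numbers in 6 of 6 libraries, so a read in the shared exon may stand in the value of each. HOXC4 had 255, 243 and 261 normalized reads in the controls and 302, 292 and 319.6 in PELP1-KD, a rise of 0.27 on the log2 scale (SE 0.08, adjusted p = 0.0109 by edgeR). HOXC5 and HOXC6 each rose by 0.47. Their PELP1-KD libraries also lay above every control.

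HOXA changed less, and not all of its genes rose. It lies on chromosome 7 (hg19, 27132614 to 27239725), and of its 11 tested genes 8 rose, 0 fell and 3 were not called, with a median log2 fold change of 0.39. Of all tested genes, 26.8% rose and 26.8% fell. HOXA3, needed for thymus and parathyroid formation, was the most expressed, at 10.7 ± 0.396 RPKM in controls and 15.6 ± 0.682 in PELP1-KD (SD, n = 3). It had 1216, 1129 and 1174 normalized reads in the controls and 1670, 1657 and 1792 in PELP1-KD, without overlap, and rose by 0.54 (SE 0.05, adjusted p = 2.30e-08 by edgeR). HOXA11, which patterns the forearm and the uterus, had 135, 138 and 119 normalized reads in the controls and 231, 229.9 and 245 in PELP1-KD. It rose the most within HOXA, by 0.85 (SE 0.10, adjusted p = 9.06e-07 by edgeR).

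HOXA5, a lung patterning gene, had 175, 158 and 178 normalized reads in the controls and 258, 229 and 232 in PELP1-KD, and rose by 0.49 (SE 0.10, adjusted p = 3.31e-04 by edgeR). Its neighbour HOXA4 had 99.9, 86.3 and 89.7 against 115, 120.2 and 151, and also rose by 0.49 (SE 0.14, adjusted p = 0.00704 by edgeR). HOXA13, which shapes the digits and the genital tract, had 114, 104 and 112 against 162, 141 and 129, and rose by 0.39 (SE 0.13, adjusted p = 0.0131 by edgeR). In each of the 3 genes the groups were apart, and only HOXA5 kept its call in all 6 fits with a library left out. The rises of HOXA9, known from blood stem cells and leukaemia, and of HOXA10, a uterine gene, were small, at 0.29 and 0.18 on the log2 scale, with adjusted p = 0.0373 and 0.0392 by edgeR. Their 95% intervals ran from -0.02 to 0.60 and from -0.02 to 0.37. HOXA9 overlapped between the groups, with 172, 219 and 164 normalized reads in the controls and 242, 218 and 218 in PELP1-KD. HOXA9 shares 1494 exon bases and HOXA10 616 with the readthrough gene HOXA10-HOXA9 on their strand, so these values are less certain.

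HOXA7 was not called. It was the second most expressed HOXA gene in controls, at 5.88 ± 0.536 RPKM against 5.43 ± 0.524 in PELP1-KD (SD, n = 3). Its normalized reads were 341, 408 and 367 in the controls and 320.4, 382 and 329 in PELP1-KD. The groups overlapped, and the log2 fold change of -0.12 (95% interval -0.36 to 0.13, adjusted p = 0.274 by edgeR) lay below the 0.49 of HOXA5 and the 0.29 of HOXA9, a difference that was not tested. HOXA6, the gene next to it, had 25.7, 45.05 and 49.6 normalized reads in the controls and 48.1, 38.5 and 62.9 in PELP1-KD, with an interval from -0.36 to 1.01 that does not settle its direction. HOXA2, a gene of the second pharyngeal arch, had 54.1, 69.0 and 65.8 against 69.6, 88.7 and 90.9. Its groups did not overlap but its adjusted p by edgeR was 0.0531, and it was 0.0404 in the fit that blocked on the replicate number.

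In HOXD, on chromosome 2 (hg19, 176957532 to 177055635), HOXD4 and HOXD3 rose. HOXD4, which patterns the upper neck, had 71.5, 78.6 and 68.7 normalized reads in the controls and 127, 159.9 and 181 in PELP1-KD. Every PELP1-KD library was above every control, and the log2 fold change was 1.09 (SE 0.15, adjusted p = 3.60e-06 by edgeR). HOXD3, needed for the first neck vertebrae, had 10, 2 and 9 reads as deposited in the controls and 26, 17 and 29 in PELP1-KD. Its log2 fold change was 1.92 (SE 0.40, adjusted p = 4.30e-04 by edgeR), from a control level of 0.0907 RPKM, the lowest of the tested members. HOXD3 too entered the test through its PELP1-KD reads alone, so this p-value is no separate support for its rise.

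HOXD1, at the end of the cluster beside HOXD3 and expressed in pain-sensing neurons, was not called. It had 211, 186 and 180.3 normalized reads in the controls and 165, 193 and 179 in PELP1-KD. The groups overlapped, with a log2 fold change of -0.11 (95% interval -0.40 to 0.18, adjusted p = 0.402 by edgeR). HOXD13, a digit gene at the opposite end, had 8, 14 and 12 reads as deposited in the controls and 9, 9 and 7 in PELP1-KD, and its interval of -1.42 to 0.87 was wide. HOXD8 had 6, 6 and 3 reads against 12, 6 and 13, a depth-scaled ratio of 2.32 (95% exact binomial interval 1.22 to 4.62). HOXD9 was the untested member with fewer reads in PELP1-KD, with 6, 0 and 2 in the controls and 1, 0 and 0. HOXD10 and HOXD11 had at most 2 reads in any library, and HOXD12 had none.

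Grouped by number, rising members were found along the whole series. Among members that met the minimum in both groups, 2 of 4 genes numbered 1 to 3 rose, 8 of 10 numbered 4 to 8 and 9 of 9 numbered 9 to 13, where 26.8% of all tested genes rose. No difference between these groups was tested.

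**Figure D4:**
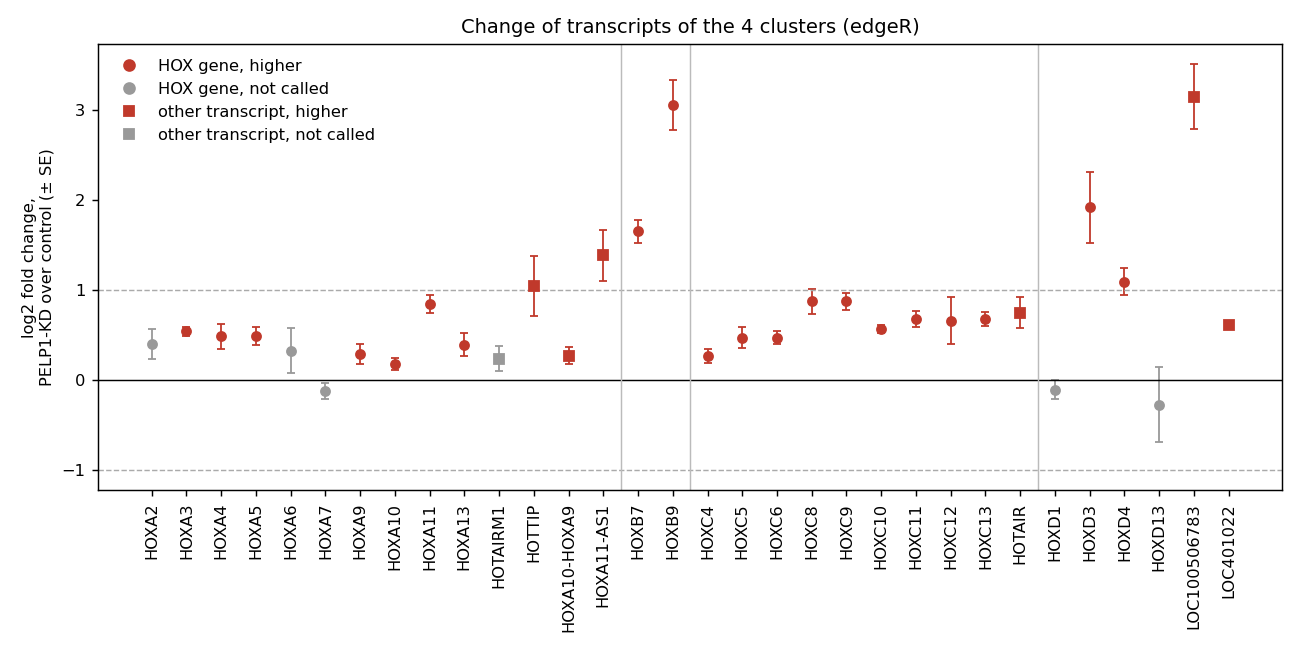
Log2 fold change of PELP1-KD over control with its SE for 25 of the 26 tested HOX genes (circles) and the other tested transcripts in the clusters or, for HOTTIP, just past the end (squares), red where higher at an adjusted p below 0.05 by edgeR and grey where not called, with dashed lines at a 2-fold change. HOXB9 at 3.06 and LOC100506783 at 3.15 are the greatest, and HOXA7, HOXD1 and HOXD13 are the points below 0.

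Transcripts other than HOX genes in the clusters, and HOTTIP just past the end of HOXA, were counted by strand and are mostly antisense and long noncoding RNAs. Of these 18 transcripts 14 had a read and 7 were tested. LOC100506783 and HOTTIP met the count minimum through the PELP1-KD libraries alone, and of the other 5 tested 4 rose and 0 fell, where 26.8% of all tested genes rose. Among those that rose is the readthrough gene HOXA10-HOXA9. Its exons are shared with HOXA9 and HOXA10, so its rise is not separate from theirs. LOC401022, which RefSeq names HAGLR by its gene identifier and which starts opposite HOXD1, was the most abundant. It had 2185, 2204 and 2243 normalized reads in the controls and 3282, 3462 and 3380 in PELP1-KD, with a log2 fold change of 0.61 (SE 0.04, adjusted p = 1.44e-10 by edgeR). LOC100506783, which RefSeq names HOXD-AS2, lies antisense in HOXD and had 5, 2 and 6 reads as deposited in the controls and 37, 29 and 40 in PELP1-KD. No control came near the PELP1-KD libraries, and the log2 fold change was 3.15 (SE 0.36, adjusted p = 4.07e-07 by edgeR) for this gene that was tested through its PELP1-KD reads. HOTAIR, a noncoding RNA of HOXC known to bind chromatin regulators, had 88.0, 54.6 and 56.3 normalized reads in the controls and 98.3, 119 and 119 in PELP1-KD, and rose by 0.75 (SE 0.18, adjusted p = 0.00132 by edgeR).

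In HOXA, HOXA11-AS1 had 11.9, 20.1 and 12.4 normalized reads in the controls and 42.0, 44.3 and 31.0 in PELP1-KD, and rose by 1.39 (SE 0.28, adjusted p = 3.71e-04 by edgeR). HOTTIP, beyond the HOXA13 end of the cluster and known to bind the MLL adaptor WDR5, had 9.17, 8.63 and 13.4 against 25.6, 19.8 and 19.0, and rose by 1.04 (SE 0.33, adjusted p = 0.0124 by edgeR). Both had groups that did not overlap. HOTTIP entered the test through its PELP1-KD reads alone, so its p-value is no separate support for its rise. It kept its call in 4 of 6 fits with a library left out, and its adjusted p by DESeq2 was 0.0745. HOXA10-HOXA9 rose by 0.27 (SE 0.09, adjusted p = 0.0214 by edgeR) and shares its exons as stated above. Its call held in 3 of 6 fits with a library left out. HOTAIRM1, a noncoding RNA of the low-numbered end, had 123, 105 and 101 against 115, 152 and 124 and was not called (log2 fold change 0.24, adjusted p = 0.157 by edgeR). Among the transcripts below the minimum, MIR10B had 1 read over the controls and 14 over PELP1-KD, a depth-scaled ratio of 15.7 (95% exact binomial interval 2.39 to 665). The others with reads were LOC100133311, MIR615, MIR196A2, LOC404266, PRAC and HOXB13-AS1, each with at most 6 reads in a library.

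A HOX gene and a noncoding RNA start close together and run in opposite directions at several places, and at 3 of them the partners could be compared within each library. HOXD1 and LOC401022 overlap at their starts, which lie 379 bases apart, and the log2 ratio of LOC401022 to HOXD1 went from 3.53 ± 0.14 in controls to 4.24 ± 0.07 (SD, n = 3). It was thus higher by 0.72 with no overlap between the groups. The ratio of HOTTIP to HOXA13, 315 bases apart, was higher by 0.68, also with no overlap. Both had an exact permutation p of 0.1, the smallest possible, and an adjusted p of 0.15 over the 3 pairs. Because HOTTIP met the count minimum through PELP1-KD alone, its ratio is no separate support for its rise. The ratio of HOXA11-AS1 to HOXA11, 192 bases apart, differed by 0.57 and overlapped between the groups (exact permutation p = 0.2).

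Of 8 tested cofactor genes, whose proteins are partners of HOX proteins, 2 rose (25.0%) and 3 fell (37.5%), against 26.8% of all tested genes in each direction. The 3 that fell did so by more than 2-fold, where 4.79% of tested genes fell that far. PBX3, whose protein binds DNA with HOX proteins, had 334, 320.1 and 331 normalized reads in the controls and 95.2, 91.0 and 51.9 in PELP1-KD, a log2 fold change of -2.06 (SE 0.14, adjusted p = 2.46e-10 by edgeR). MEIS2 had 1307, 1359 and 1329 against 563, 543 and 561, a log2 fold change of -1.26 (SE 0.05, adjusted p = 1.62e-13 by edgeR). In both genes the groups were far apart. MEIS3 rose by 0.75 (SE 0.13) and TGIF1, a TALE repressor related to MEIS, by 0.16 (SE 0.04).

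Genes of the chromatin systems that act on HOX clusters changed by less than 2-fold. Of 31 Polycomb genes 7 rose (22.6%) and 9 fell (29.0%), shares near the 26.8% of all tested genes in each direction, with a median of 0.02. CBX6 at 0.41 and JARID2 at 0.31 rose, and PHF19 at -0.34 and PHC2 at -0.28 fell. EZH2, the methyltransferase of the complex, was named here after its values were seen and had a log2 fold change of 0.00 (95% interval -0.11 to 0.11). Of 22 trithorax and associated genes 10 rose (45.5%) and 9 fell (40.9%), against 26.8% of all tested genes in each direction, with a median of -0.07. MLLT3, a subunit of elongation complexes and a fusion partner of MLL, rose by 0.74 (SE 0.05), and the methyltransferase gene MLL2 by 0.23 (SE 0.04). PSIP1, whose protein ties MLL to chromatin, had a log2 fold change of -0.65 (SE 0.06), and the cohesin gene RAD21 one of -0.38 (SE 0.04). The adjusted p values of these 4 genes by edgeR were at most 4.54e-05.

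Of 17 tested genes of the retinoic acid pathway 5 rose (29.4%) and 4 fell (23.5%), shares near the 26.8% of all tested genes in each direction, with a median of 0.01. CYP26A1, a retinoic acid hydroxylase and a known direct target of the hormone, had 139, 142 and 149.8 normalized reads in the controls and 533, 527 and 552 in PELP1-KD. The log2 fold change was 1.90 (SE 0.08, adjusted p = 1.58e-13 by edgeR). ALDH1A1, a retinaldehyde dehydrogenase, rose by 0.65 (SE 0.03). Other members fell, with CYP26B1, a second hydroxylase, at -1.02 (SE 0.07) and STRA6, the cell surface retinol transporter, at -2.86 (SE 0.23).

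**Figure D5:**
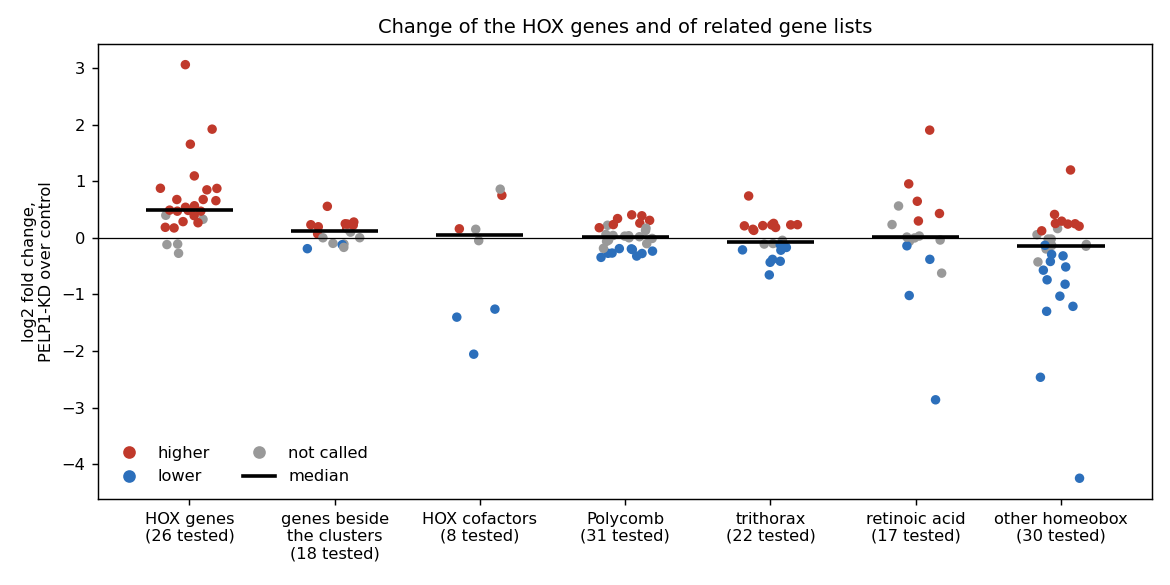
Log2 fold change of PELP1-KD over control for each tested gene of the HOX clusters and of 6 related lists, coloured by the edgeR call at an adjusted p below 0.05, with black bars for medians. The HOX median of 0.49 lies above those of the other lists, which run from -0.14 for other homeobox genes to 0.12 for genes beside the clusters.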

How the data were processed

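RNA of 3 control and 3 PELP1-KD libraries was sequenced, and samples were grouped by their labels. Per the file headers the authors counted reads with featureCounts 1.5.0-p1 on hg19 exons, reading strand and requiring a mapping quality of at least 2, and keeping reads that matched several places or genes as fractions. The study's methods name TopHat2 and HTSeq instead. The authors deposited these estimated counts, without normalization, and 231 of 234 HOX values were whole. HOX genes that share exons on the same strand had whole values in all 6 libraries. Despite the headers, reads matching several genes may therefore have been counted in full. Counts were rounded, and libraries held 26758363 to 34456542 reads on genes, which gave a median SE of 0.063 for a log2 fold change. Genes passing filterByExpr were fitted in edgeR 4.0.16 (R 4.3.3) by the quasi-likelihood test with TMM scaling and Benjamini-Hochberg adjustment over all 14537 tested genes, at an adjusted p of 0.05 and, for large changes, 2-fold. The 95% intervals of log2 fold changes used 4 degrees of freedom, fewer than the edgeR test. A called gene can therefore have an interval that includes no change. The script was tested on simulated counts. Alternatives were other scalings and filters, DESeq2 1.42.0, a fold-threshold test, a replicate block and leaving out each library, and, chosen after seeing the data, a correction for GC content and length.

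Members and lists were chosen with earlier results of these data known. Every HOX gene and detected cluster transcript was accounted for, and of the other lists those genes were named that changed at least 2-fold or had the 2 smallest p values in each direction. Replicate numbers come from the sample titles, and deviations of libraries with the same number correlated at 0.333, 0.242 and 0.665 over 6397 genes. Control 2 with PELP1-KD 1 gave 0.419 and control 1 with PELP1-KD 2 gave 0.241, and the other pairs were negative. Values of a few single genes are not reported here.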

Additional observations from a re-analysis of the deposited data

How the results depend on the processing

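HOX genes rose and none fell under every alternative run. HOXB9 and HOXD3, tested through their PELP1-KD reads alone, are in the counts of 21 and 4 below. At an adjusted p below 0.05 the count of 21 was 18 with DESeq2, 25 with no count minimum, 22 with the replicate block and 18 to 20 when 1 library was left out. In all 6 lost their call in at least 1 such fit, among them HOXA4, HOXA9, HOXA10, HOXA13 and HOXC12, and 15 of the 21 kept it in all 6. The share of all tested genes that kept their call is not given here. The 4 genes past a 2-fold change were 7 with DESeq2, 9 with no count minimum, 2 where every library had to hold 10 reads and 2 with edgeR's glmTreat against 2-fold, where all genes numbered 613 in place of 1112, and were 4 or 5 with a library left out and 4 with the replicate block. The first 3 of these settings test another set of genes, and glmTreat asks for a change beyond 2-fold. Of the log2 ratios of cluster sums, HOXA went from 0.37 to 0.41 without members that share exons and HOXC from 0.58 to 0.64. In RPKM HOXA was 0.35, HOXB 1.88 in place of 2.01, HOXC 0.59 and HOXD 0.49 in place of 0.40. With libraries left out they ran from 0.35 to 0.38 for HOXA, 1.92 to 2.06 for HOXB, 0.56 to 0.60 for HOXC and 0.34 to 0.47 for HOXD. Among values of single HOX genes, 357 of 413 kept direction and call, 52 lost the call, 4 gained it and 0 reversed. The replicate block changed the calls of HOXA2 and PELP1 as given above. Depth limits the 13 genes below the minimum, for which only ratios of reads, or ratios at a limit of the control reads, could be given.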

Other observations

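Genes outside the clusters but within 1 Mb of them were tested as well. Of 112 such genes 76 were tested, 33 rose (43.4%) and 8 fell (10.5%), against 26.8% of all tested genes in each direction, with a median log2 fold change of 0.09. On a separate list of genes beside the clusters, CALCOCO1, near HOXC, rose by 0.56 (SE 0.07, adjusted p = 7.04e-07 by edgeR) and TAX1BP1, near HOXA, by 0.22 (SE 0.03). ATP5G2 at -0.19 and HNRNPA3 at -0.12 fell, and HNRNPA3 is not among the 112 genes. None of the 18 tested genes of that list changed 2-fold. Of all 76, 4 rose (5.26%) and 2 fell (2.63%) by at least 2-fold, where 2.85% and 4.79% of all tested genes did. Named after their values were seen, these were SOAT2, NXPH3, AMHR2 and SP6, which rose, and TENC1 and PPP1R1A, which fell, and the nearest lay 507.3 kb from its cluster.

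Of 30 tested homeobox genes outside the HOX clusters 8 rose (26.7%) and 13 fell (43.3%), against 26.8% of all tested genes in each direction, with a median of -0.14. CDX2, the intestinal homeobox factor known to activate HOX genes in the embryo, was abundant at 72.4 ± 2.75 RPKM in controls and 86.1 ± 5.34 in PELP1-KD (SD, n = 3), and rose by 0.25 (SE 0.04, adjusted p = 9.71e-05 by edgeR). HHEX, a liver bud factor, had a log2 fold change of -0.82 (SE 0.06). CUX2 at -4.25, SIX2 at -2.46, DLX1 at -1.30, MSX1 at -1.21 and DLX2 at -1.03 fell further, all at control levels under 1 RPKM. CUX2 and SIX2 met the count minimum through the controls alone.

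Markers of other cells were low or mixed. Of 8 hepatocyte markers 2 rose (25.0%) and 6 fell (75%), against 26.8% of all tested genes in each direction, with AFP at 0.62, HNF4A at 0.23, ALB at -0.61 and SERPINA1 at -0.46. The leukocyte marker PTPRC had 9 reads over the controls and 9 over PELP1-KD, and CD14 had a log2 fold change of -0.98. Of the fibroblast markers LUM rose by 0.92, COL1A2 rose by 0.51 and PDGFRA was at -0.96, while DCN had 2 and 4 reads. Their part in the HOX values was not tested.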
